A study of Mus musculus with 57 samples.

Results

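Salivary glands taken fresh at embryonic day 14 (E14) were compared with glands taken fresh at E13, with 4 samples at each stage (E13 A to D and E14 A to D), which are 8 of the 57 samples of the series. All 8 were labelled as wild type (WT) and untreated, so the stage is the only labelled difference between them. The labels do not state strain, sex, litter or the number of glands in a sample, and the p-values measure the spread between samples, which may be technical in part. Every gene of the table entered the comparison. Of 35275 genes, 16521 had counts high enough to be tested, and every difference is given as E14 minus E13. Glands of E15, E16, E17 and E18, 4 at each stage and with the same genotype and treatment labels, entered the same fit and are used to follow genes onward. Untreated WT control end buds, the epithelial tips of the gland, served as a further set of samples, of which 3 are titled E13 and 2 are titled E14. All 5 were cultured for 4 h, whereas the glands were taken fresh. All 5 carry the stage label E13+4h, so their age rests on the titles. End buds treated with NRG1 (neuregulin 1), 3 titled E13 and 3 titled E14, entered the fit of the buds but are not compared here.

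The salivary gland starts as an epithelial bud on a stalk that grows into condensed mesenchyme and branches by repeated clefting. FGF10 from the mesenchyme acts on its receptor in the epithelium to drive bud growth, and parasympathetic neurons gather around the stalk. Later the end buds form the acini, which secrete saliva, and the stalks form the ducts, which modify it.

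Counts assigned to genes ranged from 13033868 (E13 B) to 24226709 (E14 C) per sample. Levels are given as CPM (counts scaled to a common library size of 1000000 counts, after TMM scaling), with factors of 1.05 to 1.09 in the 8 glands. The epithelial gene Epcam lay between 213 and 336 CPM, and the mesenchymal receptor gene Pdgfra between 331 and 438 CPM, so both compartments of the labelled tissue were present in every gland. E13 B stood apart in that 16 genes with at least 30 counts exceeded every other E13 gland by more than 10 times. They include stomach and intestine genes, with 217 counts of Gkn3 against at most 7 and 143 counts of Akp3 against 0, and the later saliva product Smgc, with 120 counts against at most 1. E14 A differed from the other 3 E14 glands by a chi-square per gene of 21.9 to 36.3, while those 3 differed from each other by 3.57 to 8.67. Without E13 B, 1545 genes were higher and 932 lower at E14, and without E14 A, 1587 were higher and 932 lower. The female-expressed Xist had 161, 362, 179.9 and 228 CPM at E13 and 914, 651, 351 and 477 CPM at E14, and those ranges overlapped. Of the 5 sex chromosome genes tested, Xist was called higher (log2 fold change 1.36 ± 0.38, adjusted p = 0.0148, and up to 0.0633 without E13 A or E14 A) and 4 Y-linked genes did not pass. The 5 genes had a median log2 fold change of -0.82 and a lowest value of -0.95, in the direction opposite to Xist. With only the 8 glands in the fit 1 gene was called lower, and 2 were when the replicate letter was added to that fit. The part of sex in the results below was not tested.

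At E14, 1953 genes (11.8% of those tested) were higher and 1261 (7.63%) were lower than at E13, by edgeR's quasi-likelihood test with a Benjamini-Hochberg adjusted p under 0.05, and genes that pass it are said here to have risen, fallen or been called. The median log2 fold change over all tested genes was 0.00. Most changes were moderate: 530 risen genes and 307 fallen genes passed 2-fold, and 121 and 76 passed 4-fold. In 1777 of the 1953 risen genes all 4 E14 glands lay above all 4 E13 glands, a pattern found in 17.2% of all tested genes, and 15.5% showed the reverse. The 15 leading risers were mixed in role and included the proton pump gene Atp6v1b1, the coactivator gene Pou2af1, the enzyme genes Xdh, Chdh and Aldh1a1, the water channel gene Aqp5 and the adult globin gene Hbb-bt. Of the 15 leading fallers 4 (Tnnc1, Myog, Chrna1 and Myod1) are on the skeletal muscle list, and the ribosomal protein gene Rpl26 and the embryonic globin gene Hbb-y are among the others.

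**Figure D1:**
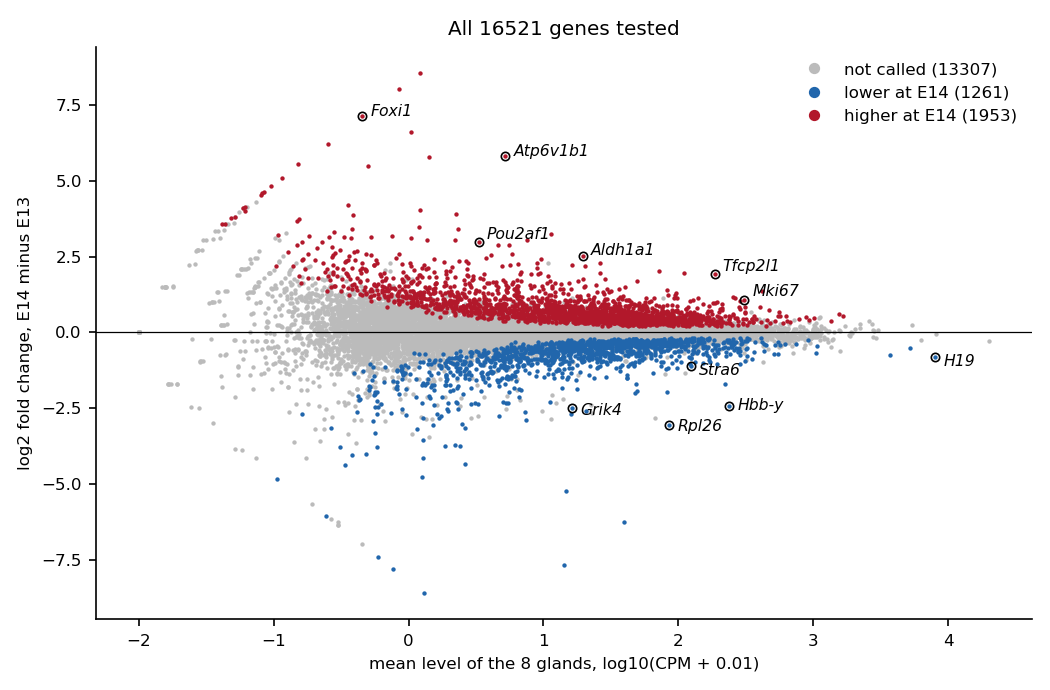
Log2 fold change, E14 minus E13, against the mean level of each of 16521 tested genes on a log10 CPM axis, with called genes coloured and 11 genes circled. Foxi1 lies farthest above 0 among the circled genes, followed by Atp6v1b1 at a log2 fold change of 5.82, and Rpl26 lies farthest below, at -3.07.

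Atp6v1b1 (chromosome 6, 83742990 to 83758855, plus strand, GRCm38), which encodes a B subunit of the proton pump found in acid-secreting cells and ionocytes, had 0.164, 0.0724, 0.354 and 0.103 CPM in E13 A to D and 8.35, 9.95, 9.27 and 13.3 CPM in E14 A to D. It was close to 0 in every E13 gland and near 10 in every E14 gland, a rise of 5.82 ± 0.23 on the log2 scale (± SE here and for every log2 fold change; adjusted p = 4.78e-14), the largest among the genes that met the naming rule. Its mean level went on to 44.3 ± 3.24 CPM at E15 and 60.6 ± 2.53 CPM at E18 (SD, n = 4). Foxi1, the transcription factor known to drive such proton pump genes in ionocytes of kidney and inner ear, was looked up after the rise of Atp6v1b1 was seen. It had 0 counts in all 4 E13 glands and 10, 15, 23 and 28 counts in E14 A to D. Set against a floor of 3 counts over the 4 E13 glands, its pooled level of 0.899 CPM at E14 was at least 20.5-fold higher. Its mean level was 6.39 ± 1.41 CPM at E15.

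Pou2af1, which encodes a coactivator of POU-domain factors, had 0.547, 0.724, 0.531 and 1.13 CPM in E13 A to D and 5.14, 6.72, 4.54 and 7.10 CPM in E14 A to D, without overlap (log2 fold change 2.98 ± 0.24, adjusted p = 3.29e-09). Its level peaked early: the mean was 11.2 ± 1.95 CPM at E15 and 0.930 ± 0.225 CPM at E18. Pou2f3, the POU factor of tuft cells, fell short of the 5 CPM needed for naming and was chosen after its values were seen. It had 0, 0.145, 0.0590 and 0 CPM in E13 A to D and 1.93, 2.60, 2.68 and 3.85 CPM in E14 A to D (log2 fold change 5.79 ± 0.44). Its mean level was 18.2 ± 3.14 CPM at E15 and 0.376 ± 0.152 CPM at E18, so that both genes were low, then high, then low again over the stages.

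Other leading risers encode enzymes and secreted proteins. Aldh1a1, an enzyme that oxidises retinaldehyde to retinoic acid, had 7.72, 6.37, 4.02 and 5.44 CPM in E13 A to D and 32.5, 30.6, 34.4 and 36.1 CPM in E14 A to D, a rise without overlap (log2 fold change 2.50 ± 0.15, adjusted p = 5.5e-11). Xdh, the xanthine oxidoreductase, had 0.712, 2.17, 1.24 and 1.23 CPM at E13 and 11.6, 8.34, 7.85 and 11.2 CPM at E14 (log2 fold change 2.89 ± 0.23). Chdh, the choline dehydrogenase, rose by 2.89 ± 0.41 on the same scale. The groups did not overlap for any of these genes. The iron-siderophore binding protein gene Lcn2 rose from a range of 1.67 to 4.16 CPM to one of 12.8 to 16.5 CPM, and the secreted whey acidic protein family gene Wfdc18 rose by 2.18 ± 0.28. The matrix gene Tnxb (tenascin XB) rose by 2.23 ± 0.14, the Ras GTPase-activating protein gene Rasal1 by 2.55 ± 0.15, the lipid phosphatase-related gene Plppr4 by 2.60 ± 0.18, the kinase gene Nuak2 by 2.21 ± 0.21 and the classical MHC class I gene H2-K1 by 2.26 ± 0.38. H2-K1 belongs to a family of close copies, between which the authors' counting may have split reads.

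Rpl26 (chromosome 11, 68901583 to 68906989, plus strand, GRCm38), a protein of the large ribosomal subunit, had 207, 171, 58.7 and 177 CPM in E13 A to D and 17.1, 17.9, 20.0 and 18.2 CPM in E14 A to D, and E13 C lay below the other E13 glands but above every E14 gland. The log2 fold change was -3.07 ± 0.44 (adjusted p = 3.58e-05). Of 77 cytosolic ribosomal protein genes tested, Rpl26 was the only one called, and the median over them was -0.23. Rpl26 was 29.5 ± 5.01 CPM at E15 and 376 ± 113 CPM at E18. Ribosomal protein genes have many near-identical processed pseudogenes, and the treatment of reads that fit several copies is not stated, which leaves this value uncertain.

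**Figure D2:**
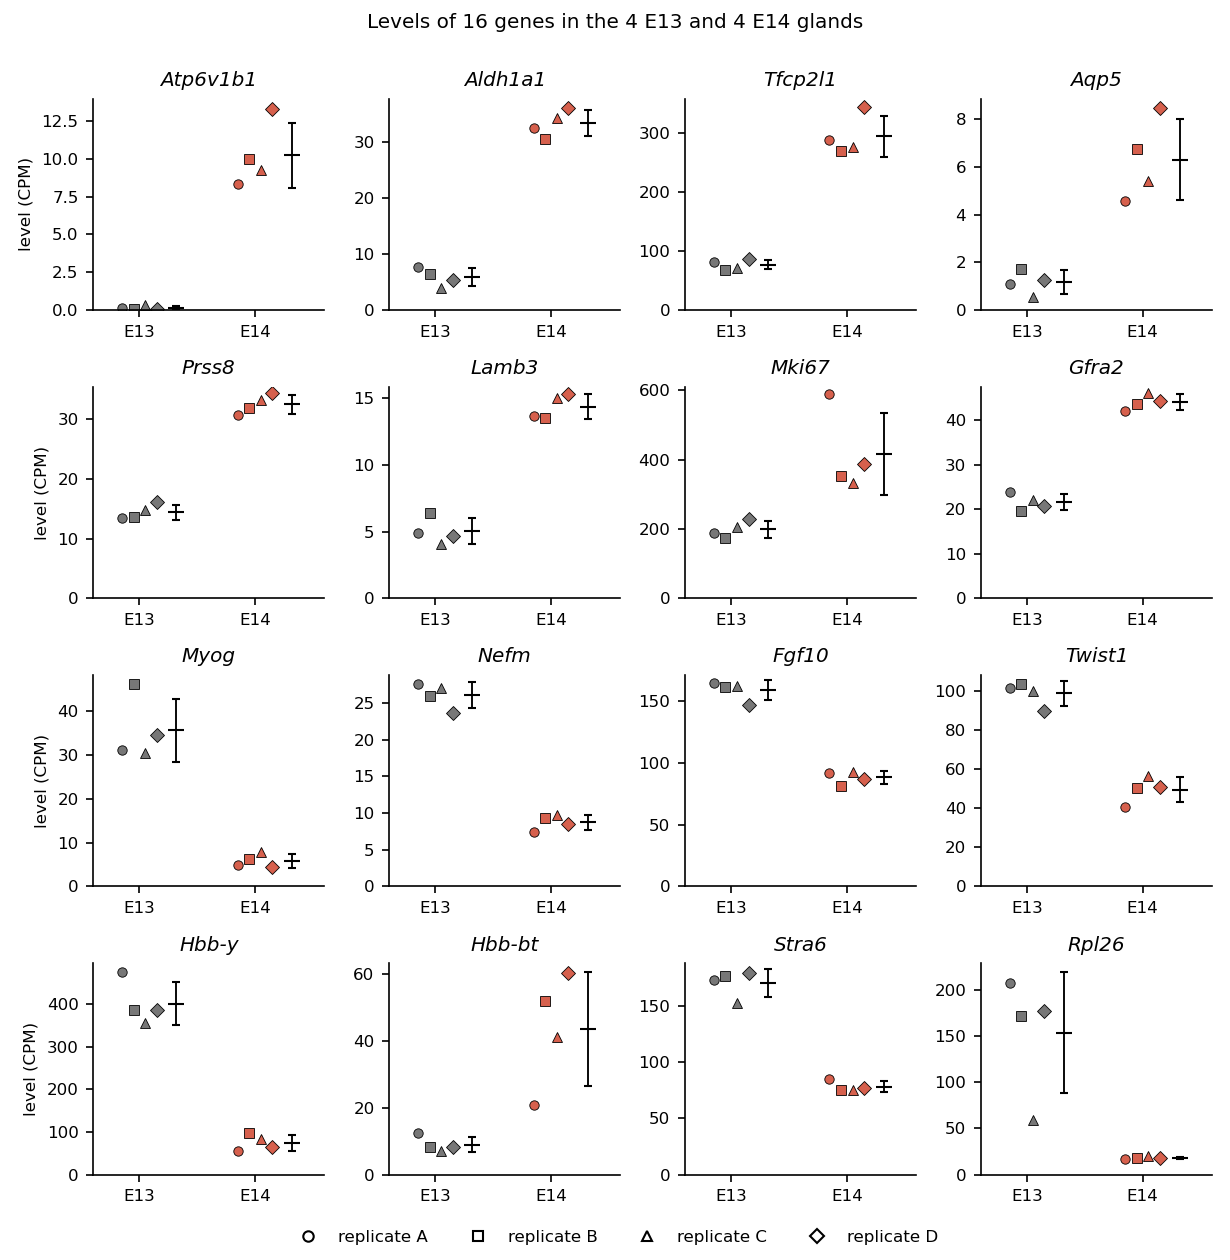
CPM of 16 genes in each of the 4 E13 and 4 E14 glands, with symbols for glands A to D and bars for the mean and SD (n = 4). Myog, Nefm, Hbb-y and Stra6 lie lower in all 4 E14 glands than in any E13 gland, and Atp6v1b1, Aldh1a1, Tfcp2l1 and Mki67 lie higher.

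Epithelial genes rose together. Of 26 general epithelial genes, 21 rose and none fell, against 11.8% and 7.63% of all genes, with a median log2 fold change of 0.69. Their summed level was 1298 to 1455 CPM in the E13 glands and 2029 to 2277 CPM in the E14 glands, without overlap. In whole glands, more epithelial cells and more RNA per epithelial cell cannot be told apart, and the same holds for less of any other cell type.

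The adhesion gene Epcam had 227, 229.8, 216 and 213 CPM in E13 A to D and 275, 286, 336 and 323 CPM in E14 A to D and rose by 0.46 ± 0.11, one of the smaller changes of the list. Cdh1 (E-cadherin) rose by 0.82 ± 0.10, and the simple keratin genes Krt8 and Krt18 by 0.94 ± 0.13 and 1.06 ± 0.20. Prss8, a membrane-anchored protease that activates sodium channels, had 13.4, 13.5, 14.7 and 16.1 CPM at E13 and 30.7, 31.9, 33.2 and 34.4 CPM at E14, about a doubling between the stages (log2 fold change 1.17 ± 0.09, adjusted p = 2.39e-09). St14 (matriptase), a protease that acts with it, rose by 0.69 ± 0.08. The epithelial splicing factor gene Esrp1 had 93.9, 75.0, 81.5 and 85.6 CPM at E13 and 165, 141, 144 and 156 CPM at E14 and rose by 0.85 ± 0.08, and the tight junction gene Marveld3 rose by 1.08 ± 0.09.

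Because 21 of the 26 rose, the comparison was also scaled to these epithelial genes, which sets the median of all genes at -0.61. Levels relative to these 26 genes are called per epithelial RNA here. That name holds only if these genes kept a constant share of epithelial RNA, which was not tested. On that scale 381 genes (2.31%) were higher and 10776 (65.2%) lower, and 208 of the 1953 risen genes turned to lower. Scaled instead to the mesenchyme regulator genes, the median of all genes was 0.32, with 6800 genes (41.2%) higher and 461 (2.79%) lower. The lists below are given on the standard scale, where 11.8% of all genes rose and 7.63% fell, and counts per epithelial RNA are to be read against the 2.31% and 65.2% of all genes on that scale. Counts of calls with only the 8 glands in the fit are given where they moved a list's count by more than 1.5 times.

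**Figure D3:**
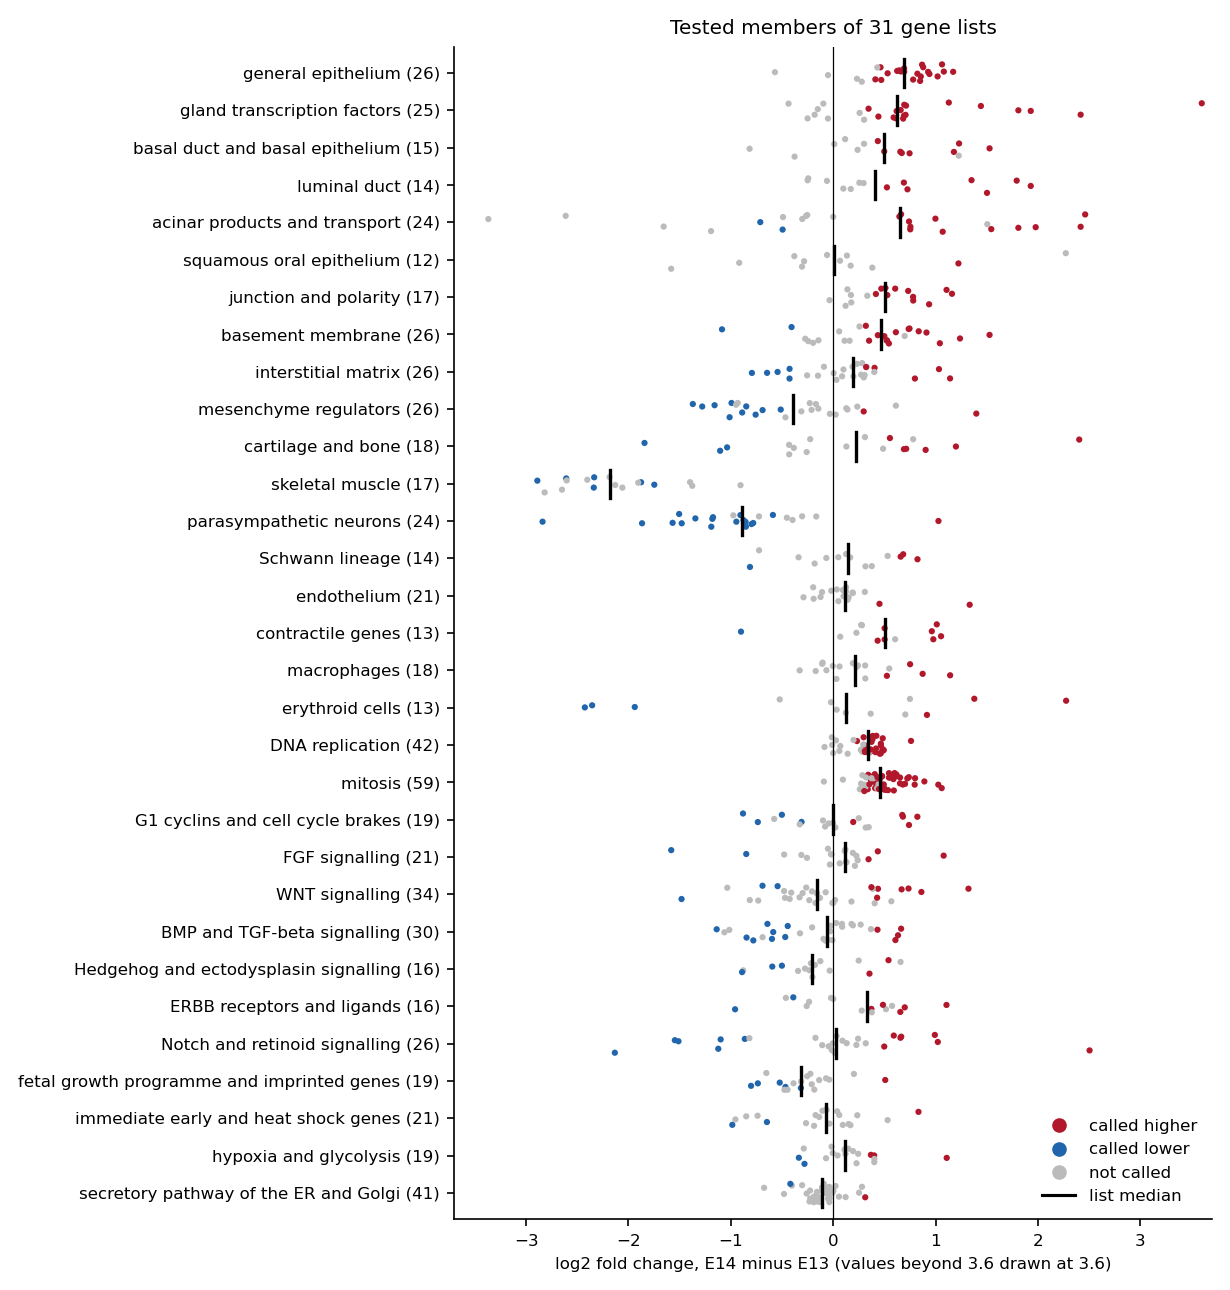
Log2 fold change, E14 minus E13, of each tested member of 31 gene lists, with called members coloured and the median marked, and values beyond 3.6 drawn at 3.6. Epithelial, junction and mitosis lists lie above 0 and neuron and muscle lists below it; per epithelial RNA the median of the mitosis list turned to -0.15 and that of the junction list to -0.10.

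Of 25 gland transcription factors 17 rose and none fell, with a median of 0.62; per epithelial RNA 6 were higher and 6 lower. Tfcp2l1 (chromosome 1, 118627945 to 118685168, plus strand, GRCm38), a factor of ducts, had 82.2, 68.8, 72.2 and 85.9 CPM in E13 A to D and 287, 269, 277 and 345 CPM in E14 A to D, and all 4 E14 glands were more than 3 times as high as any E13 gland (log2 fold change 1.93 ± 0.12, adjusted p = 5.5e-11). Elf5, an ETS factor of secretory luminal cells in mammary gland, had 21.8, 18.4, 17.3 and 19.9 CPM at E13 and 52.1, 48.4, 49.6 and 60.4 CPM at E14 (log2 fold change 1.44 ± 0.10, adjusted p = 5.06e-10). Its groups did not overlap. The acinar factor genes Bhlha15 (MIST1) and Spdef rose by 1.81 ± 0.23 and 2.42 ± 0.35 from means of 0.973 and 0.509 CPM.

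The end bud factor gene Sox10 had 169, 148, 154 and 147 CPM in E13 A to D and 235, 245, 259 and 254 CPM in E14 A to D, without overlap (log2 fold change 0.68 ± 0.12, adjusted p = 0.000208). Sox9, which acts upstream of it in the buds, rose by 0.44 ± 0.08, and the progenitor receptor gene Kit rose by 0.66 ± 0.10. The ETS factor gene Ehf rose by 1.13 ± 0.16. Among the 8 factors not called were Trp63 (0.30 ± 0.12), the factor of basal cells, and Xbp1 (-0.15 ± 0.09), the factor of the secretory pathway.

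Of 24 acinar genes tested 12 rose and 2 fell, with a median of 0.65, and without E13 B 13 rose and 1 fell; per epithelial RNA 3 were higher and 8 lower. Aqp5, the water channel of acinar cells, had 1.09, 1.74, 0.531 and 1.28 CPM in E13 A to D and 4.56, 6.77, 5.41 and 8.46 CPM in E14 A to D (log2 fold change 2.46 ± 0.27, adjusted p = 6.89e-07). All E14 glands lay above all E13 glands, and all were far below the mean of 591 ± 149.6 CPM at E18. The Na-K-Cl cotransporter gene Slc12a2, which loads chloride for fluid secretion, was already abundant and rose from 226, 202, 205 and 216 CPM to 402, 316, 347 and 367 CPM (log2 fold change 0.75 ± 0.13). The rise of Slc12a2 was not steady: its mean was 124 ± 24.5 CPM at E15, below every E13 gland, and 577 ± 86.4 CPM at E18. The chloride channel gene Ano1 rose by 1.00 ± 0.20 and the muscarinic receptor gene Chrm1 by 0.75 ± 0.15.

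Products of saliva differed among themselves. The lactoperoxidase gene Lpo rose by 1.07 ± 0.22, to a mean of 4.03 CPM. Smgc, the submandibular mucin-like product, had 0.0547, 8.69, 0.0590 and 0.0513 CPM at E13 and 0.578, 0.672, 0.592 and 0.658 CPM at E14; E13 B stood far above the other E13 glands, which held at most 1 count each. The 4 E14 glands held 9, 15, 15 and 14 counts of it. Bpifa2, a saliva protein gene, had 0, 2.53, 0 and 0.0513 CPM at E13 and 0, 0.0896, 0 and 0.0940 CPM at E14, again with E13 B alone above 0.1 CPM. Neither was called (adjusted p = 0.228 and 0.0782), but E13 B decides this for Smgc: without that gland Smgc was called higher at E14 (log2 fold change 3.37, adjusted p = 6.01e-05). The falls in the list were Creb3l1 (-0.49 ± 0.16), a factor of secretory cells, and Derl3 (-0.71 ± 0.22), an ER degradation gene whose groups overlapped. Neither call held in every fit that left out a gland: Creb3l1 was lost without any of 6 glands (all but E14 A and E14 C; adjusted p up to 0.0945) and Derl3 without E13 C, E13 D, E14 B or E14 D (up to 0.11).

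Luminal duct genes rose in 7 of 14 and fell in none, with a median of 0.41; per epithelial RNA 4 were higher and 5 lower. The duct keratin genes Krt7 and Krt23 had 22.3, 23.9, 16.8 and 21.6 CPM at E13 and 55.0, 54.8, 60.7 and 69.2 CPM at E14 and 19.3, 14.7, 17 and 20.4 CPM at E13 and 38.3, 43.4, 49.5 and 51.2 CPM at E14 respectively. Their log2 fold changes were 1.5 ± 0.17 and 1.35 ± 0.14, and neither overlapped between stages. Krt19, a further keratin gene of ducts, rose by 0.73 ± 0.19 and the potassium channel gene Kcnk1 by 0.52 ± 0.11.

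Of 15 basal genes 8 rose and none fell, with a median of 0.50; per epithelial RNA 3 were higher and 2 lower. Krt5, the keratin gene of basal progenitors, had 49.8, 59.4, 23.9 and 33.4 CPM in E13 A to D and 39.4, 35.6, 43.8 and 48.5 CPM in E14 A to D, with overlap and a log2 fold change of 0.01 ± 0.57. Krt14, its partner, stood at 0.24 ± 0.22 and was not called either. Itga6 and Itgb4, the integrin chains of hemidesmosomes, rose by 1.18 ± 0.13 and 1.23 ± 0.15. Lamb3, a chain of their ligand laminin-332, had 4.93, 6.37, 4.07 and 4.67 CPM in E13 A to D and 13.6, 13.5, 15 and 15.3 CPM in E14 A to D, nearly 3 times as high at E14 without overlap (log2 fold change 1.53 ± 0.11, adjusted p = 5.47e-10).

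Squamous oral epithelium adjoins the gland's duct, and of 12 of its genes tested 1 rose and none fell; with only the 8 glands in the fit 2 rose and 1 fell. Calml3, a calmodulin-like gene of stratified epithelium, was the riser (1.22 ± 0.31). Krt13 had 4.76, 6.88, 0.945 and 2.36 CPM at E13 and 20.8, 13.6, 19.1 and 17.7 CPM at E14 but a spread over all stages that left it uncalled (2.27 ± 1.18, adjusted p = 0.205). Krt1, a keratin gene of skin, had 3.67, 3.84, 3.07 and 3.08 CPM at E13 and 0.835, 0.762, 1.22 and 1.65 CPM at E14, without overlap, and was not called either (-1.58 ± 1.87). With only the 8 glands in the fit Krt13 was called higher (adjusted p = 0.00699) and Krt1 lower (adjusted p = 0.000262). Krt6a, a keratin gene of oral lining, was not called (-0.38 ± 0.65).

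Junction genes rose in 11 of 17 and fell in none, with a median of 0.51; per epithelial RNA 3 were higher and 4 lower. The tight junction plaque gene Tjp3 had 19.7, 17.9, 18.7 and 19 CPM at E13 and 39.9, 39.1, 41.3 and 41.8 CPM at E14 (log2 fold change 1.11 ± 0.09, adjusted p = 2.69e-09), without overlap. The tight junction genes Cgn, Ocln and Marveld2 rose by 1.16 ± 0.14, 0.94 ± 0.10 and 0.78 ± 0.10.

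Cell cycle genes moved together by small amounts. Of 59 mitosis genes 45 rose and none fell, with a median of 0.46, and of 42 DNA replication genes 29 rose and none fell, with a median of 0.34. Per epithelial RNA, where 65.2% of all genes were lower, 2 mitosis genes were higher and 10 lower, and no replication gene was higher and 24 were lower. The medians on that scale were -0.15 and -0.27, above the -0.61 of all genes. Mki67 (chromosome 7, 135689784 to 135716361, minus strand, GRCm38), which encodes a coat protein of mitotic chromosomes, had 187, 174, 207 and 229 CPM in E13 A to D and 589.5, 352, 332 and 389 CPM in E14 A to D, with E14 A highest (log2 fold change 1.06 ± 0.14, adjusted p = 5.38e-06). Without E14 A 42 mitosis genes rose. Cenpe, a kinetochore motor, had 37.3, 39.4, 43.0 and 45.8 CPM at E13 and 112, 72.4, 70.2 and 82.7 CPM at E14, and again E14 A was highest (log2 fold change 1.03 ± 0.12). Kif23 and Racgap1, the paired proteins of the central spindle, rose by 0.74 ± 0.10 and 0.55 ± 0.06, and neither gene's groups overlapped.

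Among replication genes Uhrf1, which maintains DNA methylation at the fork, had 246, 209, 219.8 and 229 CPM at E13 and 323, 304, 313 and 324 CPM at E14 (log2 fold change 0.48 ± 0.07). The groups did not overlap. Pole, the leading-strand polymerase, rose by 0.76 ± 0.13, the nucleotide reductase subunit gene Rrm2 by 0.38 ± 0.06 and the helicase subunit gene Mcm4 by 0.38 ± 0.07. The cyclin D1 gene Ccnd1 rose by 0.82 ± 0.20.

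Of 19 genes of G1 control 5 rose and 4 fell, but only 2 fell when any 1 of E13 A, B or D or E14 A, B or D was left out, and 8 rose with only the 8 glands in the fit; per epithelial RNA none were higher and 11 lower. Cdkn1c (p57), an imprinted inhibitor and among the most abundant genes of the gland, had 4692, 4919, 4564 and 4388 CPM in E13 A to D and 2342, 2891, 3128 and 2781 CPM in E14 A to D (log2 fold change -0.74 ± 0.10, adjusted p = 1.66e-05). Every E14 gland lay below every E13 gland. Cdkn2c (p18), an inhibitor of another family, rose by 0.74 ± 0.12. The kinase gene Cdk6 rose by 0.68 ± 0.13 and Rbl1 (p107) by 0.67 ± 0.11, and Gas1, a growth arrest gene and Hedgehog co-receptor, changed by -0.50 ± 0.10.

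The promoters of the mitosis genes share an element that the choice of the list did not use. The cell cycle genes homology region (CHR), searched on both strands as TTTGAA in the 300 bases around the start of transcription (250 before and 50 after) in the RefSeq promoter table for GRCm38.p6, was present in 35 of the 48 mitosis genes that the table holds (72.9%). It was present in 20.2% of all 27025 genes of the table and in 4 of 34 replication genes (11.8%). The CCAAT box, searched as CCAAT on both strands and able to overlap a TTTGAA match by 1 base at most, was found in 72.9% of mitosis genes and 41.1% of all genes. Of the 37 risen mitosis genes that the table holds, 28 held TTTGAA, and of the 11 not called 7 held it. On both strands, the replication genes held the E2F forms TTTCCCGC in 17.6% and TTTGGCGC in 14.7%, against 1.24% and 0.585% of all genes. A match is a description of these letters and not a site of binding. The promoters of 4 mitosis genes that rose are shown from 150 bases before to 30 bases after the start, 5′ to 3′ on the gene's strand, with TTTGAA in capitals and the CCAAT box, in either orientation, likewise. These 4 were taken in order of adjusted p from risen genes with a single listed start and both elements in this window. The joint presence of both elements was thus fixed by the choice of these 4 genes. They are Racgap1 (chr15:99651627-99651806, minus), Kif23 (chr9:61946770-61946949, minus), Mki67 (chr7:135716350-135716529, minus) and the spindle pole gene Aspm (chr1:139454623-139454802, plus; 0.89 ± 0.12), all RefSeq on GRCm38.p6.
Racgap1: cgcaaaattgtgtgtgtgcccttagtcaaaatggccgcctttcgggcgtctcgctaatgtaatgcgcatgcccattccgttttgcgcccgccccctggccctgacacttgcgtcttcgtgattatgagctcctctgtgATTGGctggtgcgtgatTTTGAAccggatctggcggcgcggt
Kif23: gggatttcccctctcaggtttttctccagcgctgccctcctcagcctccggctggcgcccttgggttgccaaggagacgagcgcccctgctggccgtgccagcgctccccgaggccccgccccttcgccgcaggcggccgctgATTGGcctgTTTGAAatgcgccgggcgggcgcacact
Mki67: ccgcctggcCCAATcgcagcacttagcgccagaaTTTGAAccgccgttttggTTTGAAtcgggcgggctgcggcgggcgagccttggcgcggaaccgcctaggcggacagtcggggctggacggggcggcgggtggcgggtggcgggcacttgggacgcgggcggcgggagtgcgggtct
Aspm: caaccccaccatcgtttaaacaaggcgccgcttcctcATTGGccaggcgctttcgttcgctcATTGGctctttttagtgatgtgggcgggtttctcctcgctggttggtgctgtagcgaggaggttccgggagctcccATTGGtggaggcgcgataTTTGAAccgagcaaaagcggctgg
In Racgap1, Kif23 and Aspm an ATTGG lies before the TTTGAA and close to the start, and in Mki67 there are 2 copies of TTTGAA after a CCAAT.

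The rises leaned towards long transcripts. Across 16432 genes with a known exon length Spearman's rho between length and log2 fold change was 0.147, and the median over the shortest decile of genes was -0.12 and over the longest decile 0.13. These are genes within 8 glands and not independent replicates. When the trend with length was removed, a step chosen after seeing the data, 1869 genes were higher and 1618 lower, and 45 mitosis genes and 25 replication genes were called higher.

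**Figure D4:**
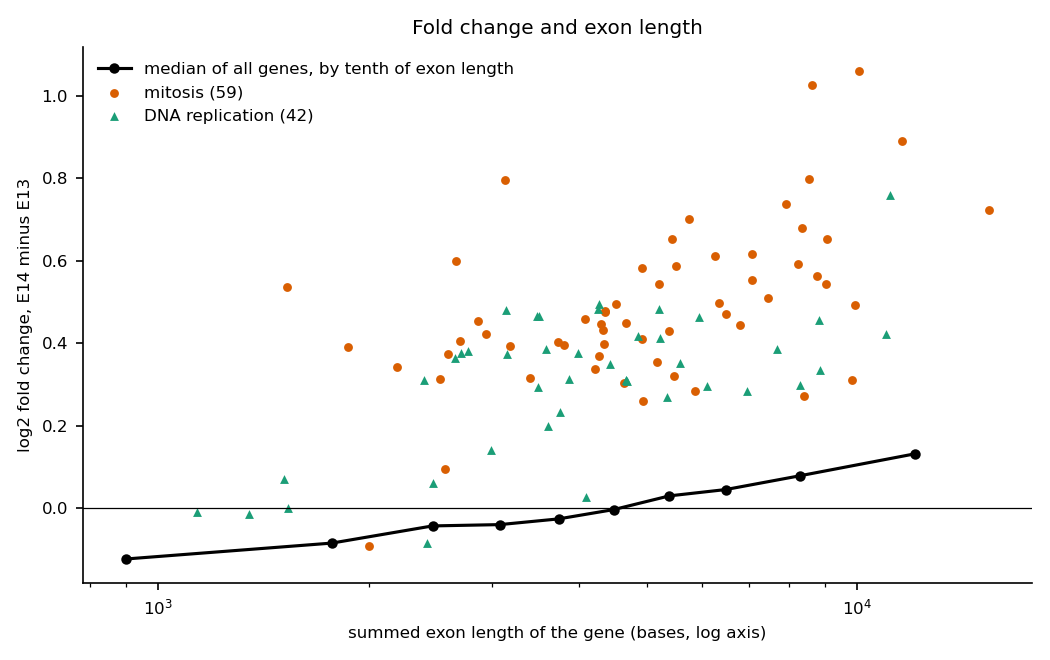
Log2 fold change, E14 minus E13, against exon length on a log axis. The line joins the medians of the deciles of 16432 genes by length, and points show the 59 mitosis and 42 DNA replication genes. The medians of the deciles rise from -0.12 to 0.13; the mitosis genes lie mostly above 0, and per epithelial RNA their median turned to -0.15.

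Of 21 FGF pathway genes 3 rose (14.3%) and 2 fell (9.52%), shares near those of all genes, with 6 risen when only the 8 glands were fitted and a median of 0.11; per epithelial RNA 1 was higher and 15 lower. Fgf10 (chromosome 13, 118669791 to 118792115, plus strand, GRCm38), the mesenchymal ligand that drives bud growth, had 164, 161, 162 and 147 CPM in E13 A to D and 91.8, 81.3, 92.5 and 87.0 CPM in E14 A to D. All E14 glands were lower than all E13 glands (log2 fold change -0.85 ± 0.13, adjusted p = 3.32e-05), and the level was 51.1 ± 8.93 CPM at E15.

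Fgf1, a ligand that binds all FGF receptors, had 27.3, 23.6, 27.1 and 27.3 CPM at E13 and 60.4, 55.3, 51.8 and 55.1 CPM at E14 and rose by 1.08 ± 0.09, without overlap. Of the receptors Fgfr4, also a gene of muscle precursors, fell from a mean of 7.12 to 2.37 CPM (-1.58 ± 0.32), and Fgfr2, the receptor for FGF10, was not called (0.24 ± 0.09). Among targets of the pathway Etv5 rose by 0.35 ± 0.07, while Etv4 and Spry2 were not called, at -0.05 ± 0.16 and 0.06 ± 0.08.

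Of 34 WNT genes 7 rose (20.6%) and 3 fell (8.82%), or 10 fell with only the 8 glands and 6 without E18 D in the fit. The median was -0.16, and it was 0.16 when scaled to mesenchyme genes. Per epithelial RNA 1 was higher and 20 lower. The ligand gene Wnt2b had 45.8, 38.7, 44.2 and 41.6 CPM in E13 A to D and 17, 15.1, 16.5 and 12.5 CPM in E14 A to D, a fall without overlap (log2 fold change -1.48 ± 0.20, adjusted p = 6.97e-06). Axin2, a feedback target of WNT, fell as well (-0.69 ± 0.20). Among the risers were the ubiquitin ligase gene Rnf43 (0.67 ± 0.13), the secreted protein gene Dkk3 (0.86 ± 0.13) and Sfrp1 (0.44 ± 0.10), a secreted antagonist. The R-spondin receptor gene Lgr6 rose by 1.32 ± 0.21 from a mean of 1.10 CPM.

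Of 30 BMP and TGF-beta genes 4 rose and 8 fell, with a median of -0.06 that was 0.26 when scaled to mesenchyme genes. The ligand gene Gdf11 had 89.2, 90.6, 86.2 and 91.5 CPM at E13 and 57.0, 56.3, 64.2 and 60.5 CPM at E14 and fell by 0.59 ± 0.10, without overlap. Tgfb2, a further ligand gene, and Tgfbi, a matrix gene that TGF-beta induces, changed by -0.64 ± 0.10 and -0.78 ± 0.11. Against these the activin antagonist gene Fst rose by 0.63 ± 0.11 and the BMP family gene Gdf10 by 0.43 ± 0.10.

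Of 16 Hedgehog and ectodysplasin genes 2 rose and 3 fell (6 with only the 8 glands and 6 by DESeq2), with a median of -0.21 that was 0.11 when scaled to mesenchyme genes. Within the ectodysplasin path the receptor gene Eda2r fell by 0.89 ± 0.19, while the adaptor gene Edaradd rose by 0.54 ± 0.13. The Hedgehog co-receptor gene Boc rose by 0.35 ± 0.09. Shh held 1 count in all 8 glands and was not tested.

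Of 16 ERBB receptor and ligand genes 5 rose and 2 fell, with a median of 0.33; per epithelial RNA 1 was higher and 7 lower. Egfr had 32.9, 31.7, 31.2 and 33.2 CPM in E13 A to D and 63.6, 49.2, 42.8 and 47.9 CPM in E14 A to D, without overlap, and E14 A was highest (log2 fold change 0.66 ± 0.10, adjusted p = 6.4e-05). Erbb2, the receptor that pairs with the others, had 122, 114, 108 and 106 CPM at E13 and 148, 146, 141 and 149 CPM at E14 and rose by 0.37 ± 0.07. Erbb3, the neuregulin receptor, had 118, 111, 107 and 111 CPM at E13 and 147, 136, 148 and 148 CPM at E14, again without overlap, but did not pass (0.38 ± 0.13, adjusted p = 0.0513). Over the alternative settings its adjusted p ran from 5.48e-05, without E18 D in the fit, to 0.125, under library size scaling, and it was 0.208 per epithelial RNA.

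Of the neuregulins, Nrg1 had 6.62, 5.86, 7.68 and 6.88 CPM at E13 and 8.28, 5.38, 7.22 and 5.88 CPM at E14, with overlapping groups and a difference of -0.02 ± 0.14. Nrg2 rose without overlap from 6.73, 4.85, 7.79 and 7.19 CPM to 15.3, 13, 15.1 and 14.1 CPM (log2 fold change 1.11 ± 0.13, adjusted p = 1.95e-06), and Nrg3 changed in the other direction (-0.96 ± 0.30). The EGF-like ligand gene Tgfa rose by 0.70 ± 0.14 and Hbegf changed by -0.39 ± 0.13. The call of Nrg3 was lost without E13 A, E13 D, E14 A or E14 C (adjusted p up to 0.0838) and that of Hbegf without any gland but E13 D (up to 0.125). Errfi1, a feedback inhibitor of EGFR, rose by 0.49 ± 0.10.

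Notch and retinoid genes were split, with 7 of 26 risen and 6 fallen; per epithelial RNA 2 were higher and 17 lower. The risers included the receptor gene Notch1 (0.99 ± 0.30), the ligand genes Jag1 (0.66 ± 0.12) and Dll1 (1.02 ± 0.13), and the target gene Nrarp (0.59 ± 0.10). Notch1 was not called without E13 B, E13 C or E14 A (adjusted p up to 0.0702). On the retinoid side the vitamin A uptake receptor gene Stra6 had 173, 177, 152 and 179 CPM in E13 A to D and 85.0, 75.5, 75.3 and 77.3 CPM in E14 A to D. It was about halved at E14 without overlap (log2 fold change -1.12 ± 0.10, adjusted p = 2.36e-08) and stood at 3.35 ± 0.775 CPM at E18. The receptor gene Rarb (-0.86 ± 0.10), the retinoic acid binding protein gene Crabp2 (-1.10 ± 0.23) and the degrading enzyme gene Cyp26b1 (-1.51 ± 0.46) fell as well, Cyp26b1 with an adjusted p of up to 0.0678 without E13 C or E14 A. Aldh1a1 and Aldh1a3, which make retinoic acid, rose by 2.50 ± 0.15 and 0.66 ± 0.10.

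Of 26 mesenchyme regulators 10 fell and 2 rose, and per epithelial RNA 23 were lower and 1 higher. The list had a median of -0.39 and a summed level of 1936 to 1996 CPM at E13 and 1485 to 1656 CPM at E14. Twist1 had 102, 104, 99.97 and 89.6 CPM in E13 A to D and 40.7, 50.5, 56.3 and 50.7 CPM in E14 A to D, about halved without overlap (log2 fold change -0.99 ± 0.14, adjusted p = 1.34e-05). Barx1, a homeobox factor of the mesenchyme of jaw and stomach, had 209, 205, 205 and 199.8 CPM at E13 and 93.8, 96.9, 114 and 101 CPM at E14 and fell by 1.01 ± 0.11. The homeobox or zinc finger genes Dlx6, Osr2 and Prrx1 fell, with log2 fold changes of -1.37 ± 0.32, -0.69 ± 0.11 and -0.51 ± 0.10. Meox1 and Meox2, a pair of related homeobox genes, moved apart, with -1.28 ± 0.17 for Meox1 and 1.40 ± 0.17 for Meox2. The broad mesenchymal receptor gene Pdgfra was not called (-0.21 ± 0.14), and Pdgfrb, the receptor of pericytes, rose by 0.30 ± 0.08.

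Of 26 interstitial matrix genes 5 rose and 5 fell (10 rose with only the 8 glands in the fit or without E18 D, 3 rose without E13 A, and 3 fell without E13 B, E13 C, E14 A, E14 B or E14 C), with a median of 0.19; per epithelial RNA 2 were higher and 16 lower. The fibrillar collagen gene Col1a1 was not called, at 0.28 ± 0.17. Among elastic fibre genes Fbln2 had 74.6, 63.3, 88.5 and 93.9 CPM at E13 and 158, 175, 150.5 and 172 CPM at E14 and rose by 1.03 ± 0.11, whereas its relative Fbln1 had 341, 352, 335 and 326 CPM at E13 and 242, 207, 223 and 192 CPM at E14 and fell by 0.65 ± 0.08. Neither overlapped. The microfibril genes were likewise divided, with 1.14 ± 0.12 for Mfap5 and -0.79 ± 0.10 for Mfap2.

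Basement membrane genes rose in 15 of 26 and fell in 2, with a median of 0.47; per epithelial RNA 2 were higher and 9 lower. Lama5, the laminin chain of growing epithelium, had 219, 154, 178 and 199.8 CPM in E13 A to D and 503, 357, 300.4 and 385 CPM in E14 A to D, with E14 A highest and no overlap (log2 fold change 1.04 ± 0.13, adjusted p = 3.92e-06). The collagen IV genes Col4a1 and Col4a2 rose by 0.61 ± 0.15 and 0.50 ± 0.14, the perlecan gene Hspg2 by 0.74 ± 0.13 and Col15a1 by 0.83 ± 0.13. Frem2, which anchors epithelium to mesenchyme, rose by 0.91 ± 0.15. Npnt (nephronectin) and Col18a1 changed by -1.09 ± 0.25 and -0.41 ± 0.12, and the call of Col18a1 was lost without E14 A or E14 C (adjusted p up to 0.0575).

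Cartilage genes moved in both directions, with 6 of 18 risen and 3 fallen (5 fallen with only the 8 glands); per epithelial RNA 1 was higher and 7 lower. Col2a1, the main cartilage collagen gene, had 273, 253, 258 and 254 CPM at E13 and 148, 119, 127 and 112 CPM at E14 and fell by 1.04 ± 0.21; Hapln1, a link protein gene of cartilage, changed by -1.84 ± 0.28. In contrast Cnmd (chondromodulin), an inhibitor of vessel growth, had 3.12, 1.67, 3.6 and 3.59 CPM in E13 A to D and 16.1, 14.2, 16.3 and 17.8 CPM in E14 A to D, without overlap (log2 fold change 2.40 ± 0.18, adjusted p = 1.41e-09). Col9a1 and the bone factor gene Runx2 rose by 0.71 ± 0.10 and 0.90 ± 0.12.

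Skeletal muscle genes were lower at E14 by a wide margin, and the E13 glands varied. In 14 of 17 tested genes all E14 glands lay below all E13 glands (15.5% of all genes), yet 6 were called, with none called higher and a median of -2.19. Without E13 B 5 were called, and with only the 8 glands in the fit 12 were. The summed level was 269 to 1013 CPM at E13, highest in E13 B, and 102 to 149 CPM at E14. Myog (chromosome 1, 134289989 to 134292548, plus strand, GRCm38), the factor that turns on muscle differentiation, had 31.2, 46.1, 30.4 and 34.4 CPM in E13 A to D and 4.82, 6.23, 7.77 and 4.32 CPM in E14 A to D (log2 fold change -2.61 ± 0.52, adjusted p = 0.00101). Even the lowest E13 gland was over 3 times the highest E14 gland. Myod1, the factor that commits cells to muscle (-2.34 ± 0.56), the acetylcholine receptor gene Chrna1 (-2.34 ± 0.51) and the troponin gene Tnnc1 (-2.89 ± 0.64) fell too. Among the 15 leading fallers outside the list were Myl4 (-2.69 ± 0.82), Smyd1 (-2.34 ± 0.62), Mybph (-2.31 ± 0.74), Tnnt2 (-2.30 ± 0.45) and Cdh15 (-2.12 ± 0.58), all known from striated muscle. Without E13 B, Myl4, Mybph and Cdh15 were no longer called (adjusted p up to 0.153, 0.138 and 0.0736 with 1 gland left out), Myl4 also not without E14 A, E14 B or E14 C and Mybph not without any E14 gland. How much muscle tissue was carried along in dissection was not tested.

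Neuronal genes fell. Of 24 genes of parasympathetic neurons 17 fell and 1 rose, with a median of -0.89, and the summed level was 561 to 686 CPM at E13 and 295 to 379 CPM at E14. The neurofilament gene Nefm had 27.6, 25.9, 27.0 and 23.6 CPM in E13 A to D and 7.38, 9.28, 9.75 and 8.55 CPM in E14 A to D and fell by 1.57 ± 0.17 (adjusted p = 3.44e-07). Its groups did not overlap. Falls were also found for the growth cone gene Gap43 (-0.91 ± 0.09), the neuropeptide gene Vip (-1.48 ± 0.23) and the vesicular acetylcholine transporter gene Slc18a3 (-0.78 ± 0.22), the last not called without E13 A (adjusted p = 0.0546). Gfra2, the receptor for neurturin, moved the other way with 24, 19.7, 22.1 and 20.7 CPM at E13 and 42.1, 43.7, 46.2 and 44.4 CPM at E14, about doubled (log2 fold change 1.03 ± 0.10, adjusted p = 3.59e-08).

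Other leading fallers were Grik4, a kainate receptor subunit gene, Kcng1, a potassium channel modifier gene, Arpp21, a phosphoprotein gene of neurons, and Ndnf, a secreted factor described in neurons. Grik4 had 26.0, 27.1, 28.0 and 29.2 CPM in E13 A to D and 4.30, 5.60, 5.88 and 3.76 CPM in E14 A to D (log2 fold change -2.49 ± 0.19, adjusted p = 2.64e-09), a fall without overlap. Kcng1, Arpp21 and Ndnf stood at -2.76 ± 0.39, -2.37 ± 0.67 and -2.64 ± 0.33, and Arpp21 was not called without E13 B (adjusted p = 0.0624).

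Of 14 Schwann lineage genes 3 rose (5 with only the 8 glands) and 1 fell, while per epithelial RNA none were higher and 6 lower, and Sox10 and Tfap2a, which are also on the list of gland factors, were 2 of the risers. Tfap2a rose by 0.66 ± 0.16 and the glial gene S100b by 0.82 ± 0.24, though S100b was not called without E13 D or E14 B (adjusted p up to 0.0686). Ngfr, the low-affinity nerve growth factor receptor gene, had 146, 149, 166 and 148 CPM at E13 and 86.8, 86.5, 92.8 and 80.7 CPM at E14 and fell by 0.81 ± 0.13, without overlap.

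Endothelial genes were called in 2 of 21, both higher, with a median of 0.11; per epithelial RNA 1 was higher and 17 lower. Lyve1, a receptor of lymphatic vessels and of some macrophages, had 2.96, 1.52, 4.13 and 3.39 CPM at E13 and 6.23, 8.56, 8.09 and 7.66 CPM at E14 (log2 fold change 1.33 ± 0.29, adjusted p = 0.00194). The TGF-beta co-receptor gene Eng rose by 0.45 ± 0.12. Pecam1, which marks all endothelium, was not called (0.09 ± 0.11), nor were the receptor genes Tie1 (-0.20 ± 0.09) and Flt1 (0.31 ± 0.14).

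Contractile genes rose in 7 of 13 and fell in 1, with a median of 0.50; per epithelial RNA 1 was higher and 3 lower. The pericyte proteoglycan gene Cspg4 had 22.9, 23.9, 23.1 and 20.9 CPM at E13 and 49.3, 46.7, 38.7 and 44.1 CPM at E14 and rose by 0.98 ± 0.09, without overlap. Mylk, the myosin light chain kinase gene, rose by 1.05 ± 0.18, the pericyte gene Rgs5 by 0.50 ± 0.10 and Smtn by 0.43 ± 0.08; Synpo2 fell by 0.90 ± 0.18.

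Macrophage genes rose in 4 of 18 and fell in none, with a median of 0.21; per epithelial RNA 1 was higher and 9 lower. Mrc1, the mannose receptor gene, had 13.8, 12.1, 18.1 and 18.8 CPM at E13 and 28.5, 32.5, 26.6 and 27.8 CPM at E14 and rose by 0.87 ± 0.13. The lysozyme gene Lyz2 rose by 1.14 ± 0.17, the receptor gene Csf1r by 0.52 ± 0.13 and the leukocyte gene Ptprc by 0.75 ± 0.22.

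Among globin genes the embryonic forms fell and an adult form rose. Hbb-y, the beta-like globin gene of primitive red cells, had 475, 386, 356 and 387 CPM in E13 A to D and 54.3, 96.8, 82.4 and 64.5 CPM in E14 A to D, a fall without overlap (log2 fold change -2.43 ± 0.34, adjusted p = 2.41e-05). Hba-x and Hbb-bh1, also embryonic, fell, with log2 fold changes of -1.94 ± 0.29 and -2.35 ± 0.48. The adult gene Hbb-bt had 12.4, 8.33, 6.97 and 8.32 CPM in E13 A to D and 20.8, 51.9, 41.4 and 60.4 CPM in E14 A to D and rose by 2.28 ± 0.46, with E14 A lowest of the E14 glands. Hba-a1 and Hbb-bs, the adult forms with the highest levels, did not pass, at 0.03 ± 0.41 and -0.02 ± 0.38, and the globin copies are close enough for reads to be split between them. The summed level of erythroid genes was 2235 to 3652 CPM at E13 and 1329 to 3168 CPM at E14, with overlap. Slc4a1, the band 3 anion exchanger gene of red cells, rose by 0.92 ± 0.18.

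Of 19 imprinted and fetal growth genes 5 fell and 1 rose, with 10 fallen when only the 8 glands were fitted, 8 by DESeq2 and 9 without E18 D, and a median of -0.31, which was 0.00 when scaled to mesenchyme genes. H19, an imprinted RNA gene and one of the most abundant RNAs of the gland, had 10098, 10916, 9986 and 9917 CPM in E13 A to D and 5181, 6225, 6461 and 5587 CPM in E14 A to D (log2 fold change -0.80 ± 0.16, adjusted p = 0.000824). All E14 glands were below all E13 glands. Its neighbour Igf2, a fetal growth factor gene, fell by 0.52 ± 0.15. Hmga2, a chromatin protein gene of fetal growth, had 96.5, 95.1, 89.5 and 94.1 CPM at E13 and 73.2, 66.2, 70.2 and 62.0 CPM at E14 and fell by 0.47 ± 0.09, while its relative Hmga1 rose by 0.51 ± 0.13.

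Of 21 immediate early and heat shock genes 1 rose (3 with only the 8 glands in the fit) and 2 fell: Jun had 177, 175, 179.7 and 174 CPM at E13 and 99.2, 83.0, 87.0 and 87.3 CPM at E14 and fell by 0.99 ± 0.16, Dusp1 fell by 0.65 ± 0.17 and the heat shock gene Hspa1b rose by 0.83 ± 0.24. Hspa1b was not called without E13 D (adjusted p = 0.051). Junb, at -0.96 ± 0.34, did not pass (adjusted p = 0.0513; 0.00234 with only the 8 glands and 0.0385 without E18 D in the fit), nor did Fos (-0.85 ± 0.38). Of 19 hypoxia and glycolysis genes 3 rose (6 with only the 8 glands) and 2 fell; per epithelial RNA 1 was higher and 14 lower. Egln3, an oxygen-sensing hydroxylase gene, had 11.3, 12.7, 10.2 and 13.5 CPM at E13 and 25, 22.5, 27.2 and 27.9 CPM at E14 and rose by 1.11 ± 0.09, whereas Vegfa changed by -0.34 ± 0.10 and Bnip3 by -0.28 ± 0.10, and the glycolysis genes Eno1 and Pfkp rose by 0.37 ± 0.11 and 0.40 ± 0.11. The calls of Vegfa, Bnip3 and Eno1 were each lost without E14 A and without at least 2 other glands (adjusted p up to 0.0673, 0.16 and 0.107). Of 41 genes of the ER and Golgi 1 rose (Edem1, 0.31 ± 0.08) and 1 fell (Pdia6, -0.42 ± 0.11, not called without E14 A). With only the 8 glands in the fit 3 rose and 9 fell, and without E18 D 2 rose and 5 fell. The median was -0.11, and it was 0.20 when scaled to mesenchyme genes.

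The changes from E13 to E14 did not all carry on. Glands of E15 and E18, which share no sample with E13 and E14 but entered the same fit, differed in 4502 genes higher (27.3%) and 4451 lower (26.9%) at E18. Of the 1953 genes that rose from E13 to E14, 778 (39.8%) were higher and 598 (30.6%) lower at E18 than at E15. Of the 1261 that fell, 257 (20.4%) were higher and 564 (44.7%) lower.

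In the general epithelial, luminal duct and acinar lists 18 of 26, 12 of 14 and 22 of 24 members were higher at E18 than at E15. No member of the mitosis or replication list was higher at E18, and 54 of 59 and 39 of 42 were lower. Mki67 was 312 ± 38.2 CPM at E15 and 236 ± 28.1 CPM at E18. All 12 squamous genes (8 with only the E15 and E18 glands in the fit) and 18 of 26 mesenchyme genes were lower, and 30 of 41 ER and Golgi genes were higher at E18. Basement membrane genes, of which 15 rose at the first step, were lower in 14 of 26 and higher in 4, or lower in 6 and higher in 3 with only the E15 and E18 glands in the fit.

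Single genes reached their peak at different stages. Aqp5 and Bhlha15 went from means of 6.30 and 3.43 CPM at E14 to 126 and 52.7 CPM at E15 and 591 and 497 CPM at E18. Lama5 and Itga6 were highest at E14 among E13, E14, E15 and E18, with 204 and 252 CPM at E15 against 386 and 353 CPM at E14. Jun fell from 176 to 89.1 CPM, was 83.0 CPM at E15 and reached 339 CPM at E18.

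**Figure D5:**
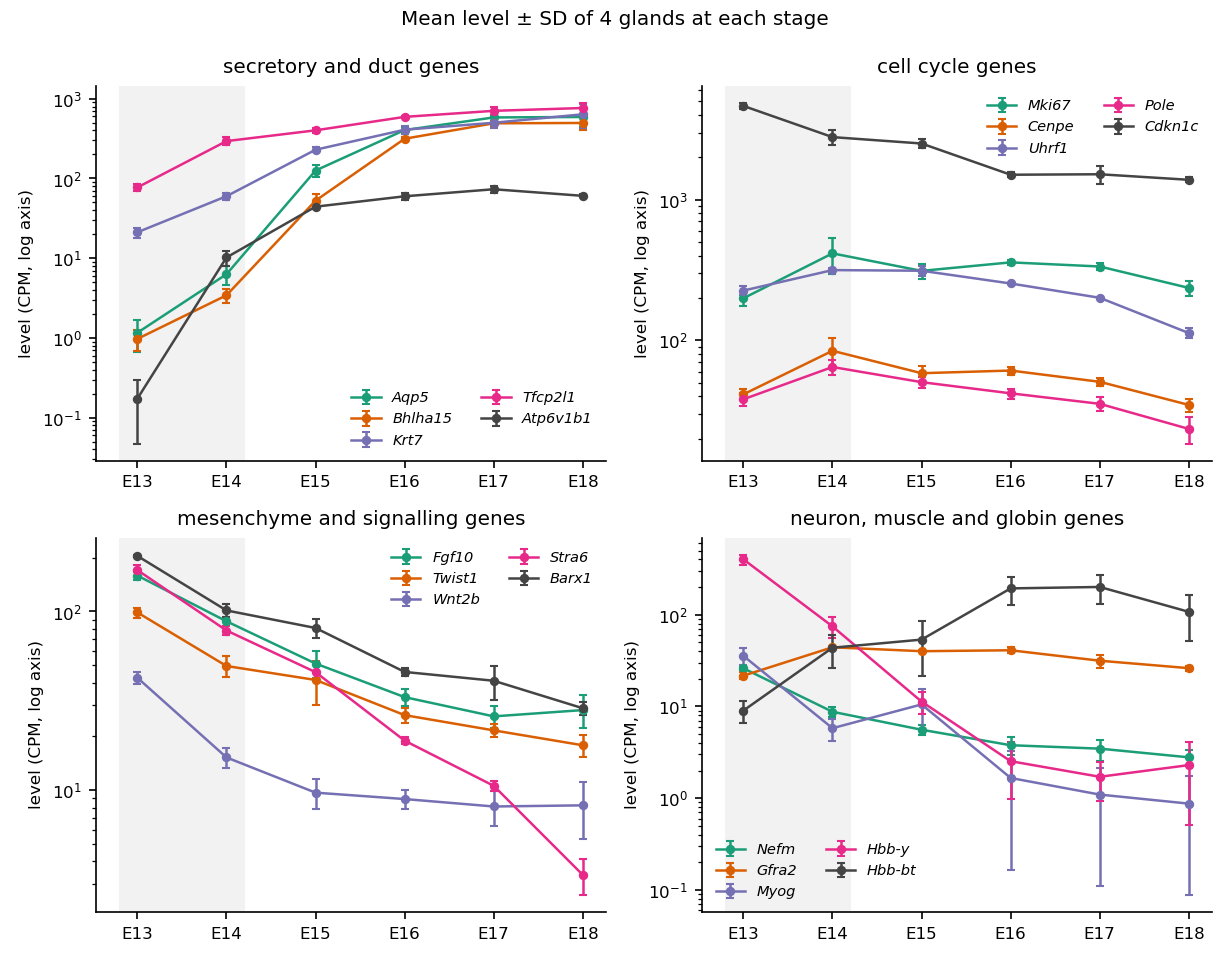
Mean CPM with SD (n = 4 glands per stage) of 20 genes from E13 to E18 on a log axis, with the step from E13 to E14 shaded; lower bars that would pass below 0 are drawn at a small positive value. Aqp5 climbs from 1.16 CPM at E13 to 591 CPM at E18, and Hbb-y declines from 401 to 2.29 CPM.

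The control end buds, labelled as salivary gland epithelium, come from a table that was normalized separately. In the 2 buds titled E14 against the 3 titled E13, 2329 genes (14.4%) were higher and 1488 (9.2%) lower. The NRG1-treated buds were in that fit and entered its estimate of the spread. When only these 5 control samples were fitted, 1394 genes were higher and 671 lower. Of the 1904 genes that rose in glands and were tested in buds, 577 (30.3%) were higher and 136 (7.14%) lower in the buds titled E14. Of the 1156 that fell in glands 261 (22.6%) were higher and 160 (13.8%) lower.

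Acinar and luminal duct lists rose in buds too, with 14 of 19 and 7 of 14 members higher, while the general epithelial list had 7 of 26 higher and 3 lower (1 lower with only the 5 buds in the fit). The basal list, of which 8 of 15 members rose in glands, had 3 higher and 6 lower in buds (2 lower with only the 5 buds). In buds no mitosis gene was higher and 27 of 59 were lower (16 with only the 5 buds), against 45 risen in glands; the difference between the sets was not tested. Mesenchyme and endothelium lists were higher in the buds titled E14 in 16 of 25 and 20 of 21 members (7 and 19 with only the 5 buds), and the part of such cells in the bud comparison was not tested. Mki67 had 480.4, 580.4 and 543 CPM in the buds titled E13 and 514 and 540.3 CPM in those titled E14. Atp6v1b1 had 5.21, 4.14 and 2.41 CPM and 47.1 and 50.2 CPM in the same order (log2 fold change 3.64, adjusted p = 1.02e-06), and Tfcp2l1 had 481, 522 and 395 CPM and 1013 and 715 CPM (log2 fold change 0.89, adjusted p = 0.00599). Aldh1a1, which rose in glands, was lower in the buds titled E14. It had 171, 156 and 162 CPM and 86.4 and 125 CPM in that order (log2 fold change -0.63, adjusted p = 0.0106).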

How the data were processed

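RNA of 8 fresh glands was compared. Per the labels' protocols, total RNA was DNase-treated and NEBNext Ultra libraries were prepared. Per the submitters' processing notes, fastp, STAR and featureCounts were used with the mm10 build, whose versions these notes do not state. The authors deposited raw counts per gene. Whether strand was used and how reads that fit several places were counted are not stated there either, and genes that overlap, antisense genes and near-identical copies are uncertain.

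Counts were tested with edgeR 4.0.16 (R 4.3.3): low counts removed by filterByExpr, TMM scaling, and the robust quasi-likelihood F test on stage in all 24 fresh glands, which share 1 estimate of the spread, with Benjamini-Hochberg adjustment and a threshold of 0.05. The SE of a log2 fold change is |log2 fold change| over the root of F. End buds were fitted alike in their own table. That fit held the control buds and the NRG1-treated buds (3 titled E13 and 3 titled E14), which share its filter, scaling and estimate of the spread. Symbols came from GENCODE M21 (97.8% of IDs matched). Counts were also simulated over 16255 genes from 1 mean level per gene over all stages. In them 67, 67 and 66 genes with a mean over 1 CPM were changed by 1.5-fold, 2-fold and 4-fold. Calls recovered 50.7%, 91.0% and 98.5% of these changes, and 6.98% of calls were genes left unchanged. Far fewer genes changed than were called between the stages, so these shares may differ in the real comparison.

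Members, the 32 gene lists (751 of 752 entries matched) and rules were chosen with earlier results of these data known. Named are the 15 largest rises and 15 largest falls among called protein-coding genes without overlap and with a mean of at least 5 CPM in the higher group, up to 4 members of each list with the smallest adjusted p, up to 2 called members that moved the other way, and 19 preset genes. Further members named beside them were picked for their roles after values were seen. Alternatives were the 8 glands alone, a replicate block, DESeq2 1.42.0, RLE and library size scaling, no filter, scaling to epithelial or mesenchyme genes, removal of the length trend, and leaving out each gland. No column of values was left unmapped. Some named genes are not reported here.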

Additional observations from a re-analysis of the deposited data

Results flagged for a closer look

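In each stage the highest or lowest of the 4 glands was set against the other 3 for every named gene and every summed list. In 21 of 476 such groups its gap to the nearest other gland exceeded Dixon's critical share of the whole range for 4 values, and chance gives about 1 in 20. E13 B was the gland in 9 of the 21.

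In E13 B the muscle genes Myl4 (69.0 CPM, against 11.8 to 18.9 in the other E13 glands), Smyd1 (12.9 CPM), Chrna1 (10.4 CPM) and Cdh15 (20.1 CPM) were high. So were the saliva genes Smgc (8.69 CPM, against at most 0.0590) and Bpifa2 (2.53 CPM, against at most 0.0513) and the acinar factor gene Spdef (0.941 CPM), while Fgf1 (23.6 CPM) and Col1a1 (1862 CPM) were low. Whether other tissue was carried into this sample was not tested. For Spdef, every E14 gland lay above E13 B.

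E14 A was high for Pdgfra (402 CPM, against 331 to 337), Marveld2 (16.2 CPM) and Tgfb2 (26.7 CPM) and low for Hbb-bs (415 CPM, against 813 to 882). E14 B was low for Erbb3 (136 CPM), Ocln (15.4 CPM) and Lpo (3.32 CPM), high for Gdf10 (58.4 CPM), and low in the summed level of squamous genes (91.8 CPM, against 113 to 117). E13 C was high for Ngfr (166 CPM) and low in the summed level of ER and Golgi genes (10257 CPM, against 10702 to 10767), and E13 A was high for Dkk3 (9.31 CPM).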

How the results depend on the processing

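Depth, the 4 glands per stage and unknown pooling limit small changes. In simulated counts, where far fewer genes changed than were called here, 50.7% of 1.5-fold changes were recovered. With only the 8 glands in the fit 2799 genes were higher and 2422 lower, of which 1812 and 1231 were among the 1953 and 1261 calls. Same-lettered glands of the 2 stages deviated from their stage means with correlations of -0.067 to -0.012, against -0.126 to 0.174 for other pairs. The labels do not say what the letters mean, and whether they mark a shared litter or day was not tested. With a replicate block 2478 genes were higher and 2138 lower. Under that block Hba-a1 stood at -0.0073, and Junb and Fos were called lower (adjusted p = 0.000387 and 0.000429). In the same fit 3 immediate early and heat shock genes rose and 6 fell. With the 8 glands alone 1 general epithelial, 1 gland factor and 1 basal gene were lower. Without E18 D, whose spread enters the shared estimate, 2638 were higher and 1961 lower. Leaving out a gland gave 1545 to 1902 higher and 932 to 1127 lower. DESeq2 gave 2040 and 1562, RLE 1892 and 1330, library size 1791 and 1142, and no filter 1755 and 1011; library size scaling ended the calls of 5 of the 206 named genes, Igf2 and Pdgfrb among them, and leaving out E14 A those of 12. Removing the length trend put Hbb-bs at 0.014. With only the glands compared in the fit, E18 against E15 gave 2824 genes lower, and the end buds 1394 higher and 671 lower. The causes of these differences were not tested.

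Scaling to epithelial genes gave 381 higher and 10776 lower, and scaling to mesenchyme genes 6800 and 461, which shift all genes by construction. The first put these log2 fold changes below 0: Boc -0.26, Col1a1 -0.33, Col4a1 -0.00083, Col4a2 -0.11, Csf1r -0.088, Edaradd -0.07, Edem1 -0.30, Eng -0.16, Eno1 -0.24, Epcam -0.15, Erbb2 -0.24, Erbb3 -0.23, Errfi1 -0.13, Etv5 -0.27, Fgfr2 -0.37, Flt1 -0.30, Gdf10 -0.18, Hba-a1 -0.57, Hmga1 -0.11, Kcnk1 -0.087, Krt14 -0.37, Krt5 -0.60, Mcm4 -0.23, Nrarp -0.023, Pdgfrb -0.31, Pecam1 -0.52, Pfkp -0.21, Racgap1 -0.057, Rgs5 -0.11, Rrm2 -0.23, Sfrp1 -0.18, Smtn -0.17, Sox9 -0.17, Spry2 -0.55, Trp63 -0.31 and Uhrf1 -0.13. The second put above 0 Bnip3 0.037, Etv4 0.26, Hbb-bs 0.30, Nrg1 0.30, Pdgfra 0.11, Tie1 0.12 and Xbp1 0.17. Leaving out a gland turned no value that was called with all 8: the ranges were -3.86 to 1.13 for Bpifa2 and -2.11 to 3.37 for Smgc, both positive without E13 B, when Smgc was called higher (adjusted p = 6.01e-05), -0.11 to 0.27 for Hba-a1, -0.12 to 0.18 for Hbb-bs, -0.18 to 0.23 for Krt5 and -0.13 to 0.075 for Nrg1. No other named gene changed sign under the alternatives run.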

Other observations

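Among called genes without overlap, with a mean of at least 2 CPM in the higher stage, 12 were over 8-fold higher and 14 over 8-fold lower at E14. Of these 5 and 6 are not typed as protein-coding, and all genes named here were chosen after their values were seen. The processed pseudogene Gm6166 had 34.8, 21.6, 30.5 and 25.3 CPM in E13 A to D and 0.0642, 0.0896, 0.237 and 0.0940 CPM in E14 A to D, and its mean was 40.1 ± 17.8 CPM at E15. The pseudogene Rpl17-ps5 had 49.1, 23.3, 15.6 and 26.0 CPM at E13 and 0.193, 1.03, 0.908 and 0.752 CPM at E14. The protein-coding gene 1700123K08Rik had 0 counts in the 4 E13 glands, 3.53, 2.2, 2.80 and 1.18 CPM in E14 A to D, and a mean of 0.0516 CPM at E15. Zfp991, a zinc finger gene, had 3.72, 5.43, 4.07 and 4.47 CPM at E13 and 0.450, 0.269, 0.316 and 0.282 CPM at E14 and a mean of 5.64 CPM at E15. For Gm6166, Zfp991 and 1700123K08Rik the E15 mean was again nearer to the level at E13 than to that at E14. Zfp991, on chromosome 4, had a mean of 0.213 CPM at E16. Zfp984, on the same chromosome, had means of 2.32, 0.199, 3.52 and 0.265 CPM at E13, E14, E15 and E16. The pseudogene Znf41-ps, also there, had 3.46, 0.255, 3.74 and 0.176 CPM at those stages. Whether a difference between the collections other than stage has a part in these changes was not tested. Counts of the pseudogenes are uncertain, since reads may fall to near-identical copies.

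Among the protein-coding genes of that group, the chemokine gene Cxcl17 had 0.164, 0.145, 0.768 and 0.462 CPM in E13 A to D and 3.40, 4.80, 4.03 and 4.65 CPM in E14 A to D, and its mean was 21.1 ± 2.35 CPM at E15. The aldehyde dehydrogenase gene Aldh3a1 had 0.274, 0.362, 0.236 and 0.257 CPM at E13 and 3.34, 5.24, 2.49 and 5.78 CPM at E14. Another chemokine gene, Ccl28, was lower at E14, with 2.85, 2.24, 2.36 and 2.21 CPM at E13 and 0.128, 0.0896, 0.0789 and 0.0470 CPM at E14. None of the 3 overlapped between stages.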
